A study of Mus musculus with 8 samples.

Results

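The machinery that brings proteins into mitochondria was followed in the hearts of 8 mice of 2 months of age, 1 Illumina bead array per heart. Its members were taken by gene name from the arrays: every gene whose symbol starts with Timm or Tomm and a number, together with Dnajc19, Samm50, Mtx1, Mtx2, Chchd4, Gfer, Pmpca and Pmpcb. These names held 48 probes of 30 genes among 25697 probes. A probe entered the test when its deposited detection p-value, which compares its signal with that of negative control beads, was under 0.05 on at least 4 of the 8 arrays. This left 31 member probes of 18 genes among 9397 tested probes.

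The knockdown group was 4 mice with a transgene for a short hairpin RNA against Taz, switched on by doxycycline. Taz encodes tafazzin, which remodels the mitochondrial phospholipid cardiolipin and whose loss in people causes Barth syndrome. The control group was 4 wild-type littermates. All 8 mice were on the C57BL/6J background and ate chow with 625 mg/kg doxycycline, an antibiotic that itself can slow mitochondrial protein synthesis, so that no heart without the drug was compared. The wild-type mice are not labelled as carrying any hairpin, so that the lowering of Taz and the presence of a hairpin cannot be told apart. The promoter and the cell types that drive the hairpin, and the sex of the mice, were not given in the sources used here.

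Nearly all mitochondrial proteins are made in the cytosol and imported. They pass the outer membrane through the TOM complex, from which the SAM complex folds barrel-shaped proteins into the outer membrane, the small Tim chaperones and the Chchd4 and Gfer relay serve the intermembrane space, and the TIM23 and TIM22 complexes serve the matrix and the inner membrane. A motor on the matrix side pulls precursors in and the processing peptidase of Pmpca and Pmpcb cuts off their targeting signal. The heart is rich in mitochondria, and in yeast several of these complexes are known to need cardiolipin for their stability.

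Taz, the target of the hairpin, was lower in every knockdown heart. Its brighter probe had deposited signals of 539, 639, 477 and 516 in wild-type hearts 1 to 4 and of 69.9, 68.1, 53.3 and 59.5 in knockdown hearts 1 to 4, and fell by 2.88 ± 0.117 (SE) on the log2 scale (limma, Benjamini-Hochberg adjusted p = 1.11e-07). From 8935 to 10183 probes were detected per array. Pairs of arrays correlated at 0.971 to 0.981 (log2 intensities) across the groups, at 0.980 to 0.986 within the wild type and at 0.983 to 0.990 within the knockdown. The ventricular muscle genes Myh6, Myl2, Tnni3 and Actc1 were detected in all 8 hearts, and Ryr2 of the same list in 2. Of the leukocyte markers, Lyz2 was detected by its bright probe in all 8 hearts, at deposited signals of 1022 to 1881, and Ptprc, Cd3e and Cd79a in none. Wild-type heart 4 stood apart in Ucp1, the uncoupling protein of brown fat, with a deposited signal of 298 against -13.4 to 31.9 in the other hearts. The number of arrays limits the precision of every value.

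Among the members, the intermembrane space chaperone gene Timm10 rose in the knockdown hearts and the inner membrane gene Dnajc19 fell by its bright probe. They were 2 of 31 member probes past a limma Benjamini-Hochberg adjusted p of 0.05, a share of 6.45%, beside 6.58% of all 9397 tested probes. By direction, 1 member probe rose (3.23%, against 3.42% of all probes) and 1 fell (3.23%, against 3.16%). The share of members that passed was thus near that of the array as a whole. The median difference over the 31 probes was 0.0056 on the log2 scale, beside -0.0094 over all tested probes, with 16 member probes positive and 15 negative. Members varied less among hearts of a group than the array did, with a median within-group SD of 0.145 against 0.194. Members and array were not matched for brightness or detection in this comparison. The groups did not overlap for 7 of the 31 member probes (22.6%, against 14.6% of all tested probes). These 7 were single probes of Timm10, Dnajc19, Timm8b, Gfer, Timm10b, Timm21 and Tomm34. In whole-heart RNA, fewer cells of a type and less RNA per cell cannot be told apart.

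**Figure D1:**
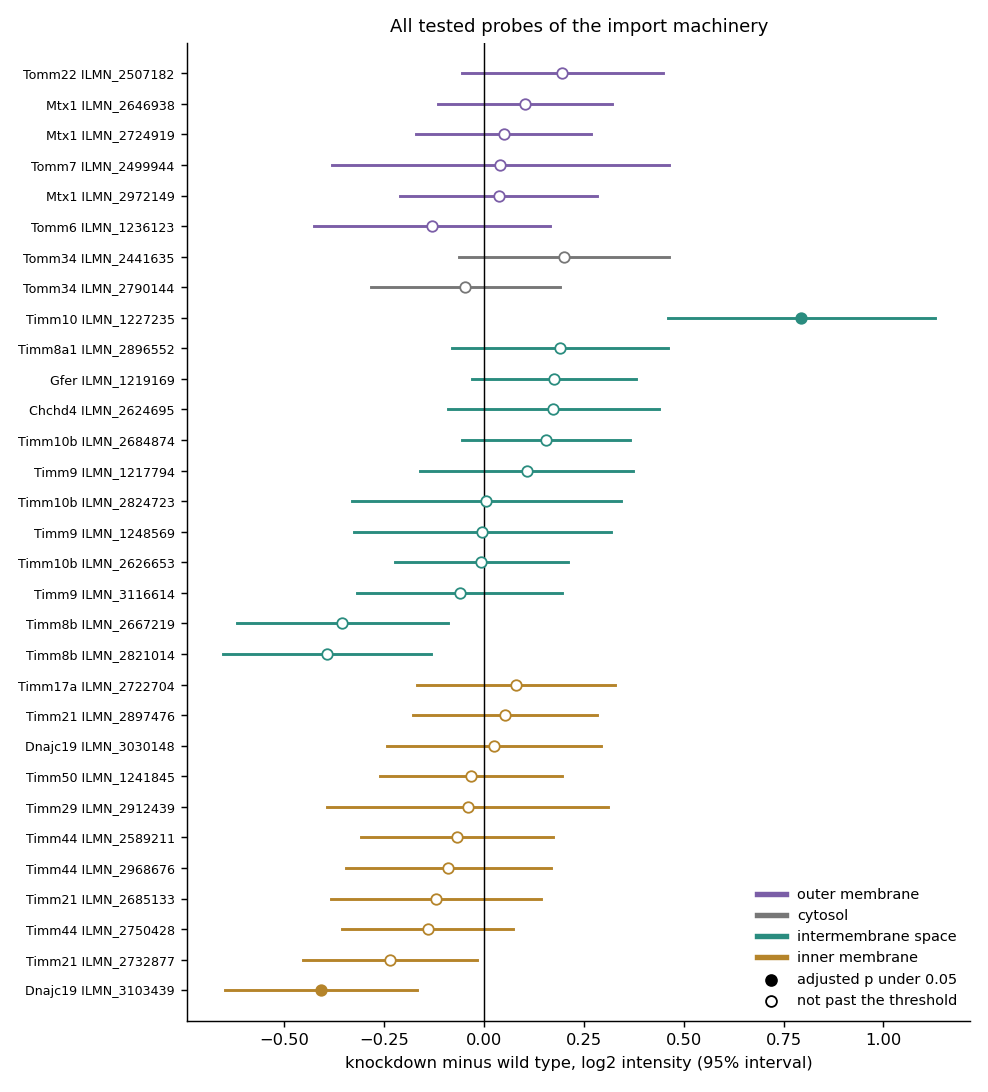
Knockdown minus wild-type difference in log2 intensity for each of the 31 tested member probes, with its 95% interval from limma (horizontal line), coloured by compartment. Filled points are the probes past an adjusted p of 0.05, Timm10 to the right at 0.79 and Dnajc19 to the left at -0.41, and both Timm8b probes lie to the left of 0 without passing.

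Timm10 forms, with Timm9, the ring-shaped chaperone that carries hydrophobic membrane proteins across the intermembrane space. Its probe had deposited signals of 91.5, 79.8, 37.3 and 57.2 in wild-type hearts 1 to 4 and of 172, 125, 113 and 98.8 in knockdown hearts 1 to 4, and was detected in all 8. The normalized log2 intensities were 6.65, 6.52, 5.96 and 6.15 against 7.27, 7.09, 7.01 and 7.08. Every knockdown heart lay above every wild-type heart, and the wild-type hearts were the more spread, with an SD of 0.319 against 0.108. Timm10 rose by 0.79 ± 0.152 (SE), a 1.73-fold increase with a 95% interval of 1.38 to 2.19 (limma adjusted p = 0.0104). It passed under all 17 alternatives tried. With an offset of 50 added to the intensities in place of 16 the difference was 0.59, and against wild-type hearts 3 and 4 alone it was 1.06.

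The promoter of Timm10 is shown because it belongs to the member with the largest difference. RefSeq places it at chr2:84826771-84827070 on the plus strand of GRCm38.p6, from 250 bases before to 50 bases after the start of the gene. Capitals mark matches to CCGGAAG, the core recognised by GABP (also called NRF-2), a regulator of many nuclear genes for mitochondrial proteins.
Timm10 promoter: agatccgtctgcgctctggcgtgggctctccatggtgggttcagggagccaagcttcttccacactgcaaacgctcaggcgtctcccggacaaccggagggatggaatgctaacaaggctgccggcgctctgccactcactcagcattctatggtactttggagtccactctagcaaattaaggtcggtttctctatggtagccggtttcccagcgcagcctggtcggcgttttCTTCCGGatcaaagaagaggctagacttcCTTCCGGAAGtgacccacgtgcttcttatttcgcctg
The window held 3 matches, the first beginning 16 bases before the start. The others began at bases 14 and 17 after it, on opposite strands and sharing bases. Windows of members that did not pass also held matches, as given below.

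Dnajc19 is a J-domain protein of the inner membrane, related to the yeast cochaperone of the import motor. In people its loss causes a dilated cardiomyopathy with ataxia that shares features with Barth syndrome. Its bright probe (ILMN_3103439) had deposited signals of 2069, 1777, 1702 and 1734 in wild-type hearts 1 to 4 and of 1682, 1363, 1257 and 1296 in knockdown hearts 1 to 4. The normalized log2 intensities were 10.95, 10.71, 11.01 and 10.76 against 10.47, 10.39, 10.36 and 10.57. The groups were apart, with the highest knockdown heart under the lowest wild-type heart. The probe fell by 0.41 ± 0.109 (SE), which put the wild-type mean 1.33-fold above the knockdown mean (95% interval 1.12 to 1.57; limma adjusted p = 0.0488).

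The call of Dnajc19 lay at the threshold and rested on this probe. It was kept under 4 of 17 alternatives and was lost when any of the 8 hearts was left out, with differences from -0.46 to -0.36 and limma adjusted p from 0.0560 to 0.131. A dim probe (ILMN_3030148), also detected in all 8 hearts, had normalized log2 intensities of 5.23, 5.49, 5.62 and 5.52 in the wild-type hearts and 5.38, 5.71, 5.39 and 5.48 in the knockdown hearts. Its groups overlapped, with a difference of 0.03 and a 95% interval of -0.24 to 0.29 (limma adjusted p = 0.930). With both probes averaged Dnajc19 stood at -0.19 (limma adjusted p = 0.284). A further probe (ILMN_3068630) was detected in no heart. RefSeq lists a pseudogene, Dnajc19-ps, on chromosome 7, and which probes can tell it from the gene on chromosome 3 was not tested, since probe sequences were not used here.

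The window of Dnajc19, shown as that of the member that fell, lies at chr3:34081305-34081604 on the minus strand of GRCm38.p6 and holds no capitals, since none of the motifs searched matched.
Dnajc19 promoter: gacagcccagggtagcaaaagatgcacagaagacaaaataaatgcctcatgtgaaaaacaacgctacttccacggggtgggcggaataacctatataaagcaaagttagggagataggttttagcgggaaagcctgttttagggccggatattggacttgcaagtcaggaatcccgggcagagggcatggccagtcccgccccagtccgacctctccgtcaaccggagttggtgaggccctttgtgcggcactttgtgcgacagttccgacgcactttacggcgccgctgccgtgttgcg
The letters searched, on both strands, were TGATGNAAN (the C/EBP-ATF response element bound by Atf4), GCGCANGCG (NRF-1), CCGGAAG (GABP) and TCAAGGTCA (ERR alpha). No letters of one motif overlapped those of another in a member window. RefSeq windows were found for 28 of the 30 member genes, 30 windows in all. The GABP letters stood in 14 of the 30 (46.7%), those of 13 genes. They stood in 8.86% of all 32851 windows and in 17.1% of the 7318 windows of genes with a tested probe. The member genes were Mtx1, Mtx2, Pmpca, Pmpcb, Timm10, Timm10b, Timm23, Timm29, Timm8a2, Timm8b, Tomm22, Tomm34 and Tomm70a, of which only Timm10 passed. The Tomm22 window also held several matches, beginning 47 and 44 bases before the start and at base 6 after it. The NRF-1 letters stood in 13.3% of member windows (Chchd4, Timm13, Timm8b and Tomm20), beside 6.25% of all windows and 13% of those of tested genes. The ERR alpha letters stood in 1 member window, that of Timm8b, beside 0.423% of all windows and 0.273% of those of tested genes. The C/EBP-ATF letters stood in no member window, beside 3.95% of all windows and 2.36% of those of tested genes. These are matches of letters, and no test was made of them.

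**Figure D2:**
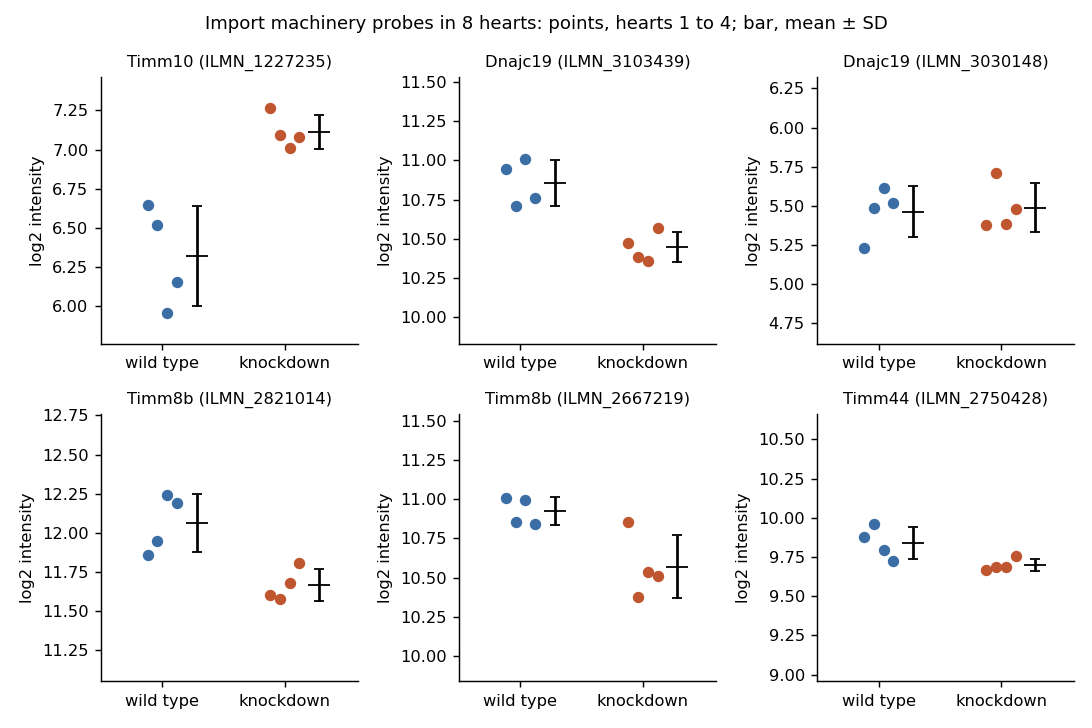
Normalized log2 intensity of 6 member probes in each heart (points, hearts 1 to 4 from left to right within a group) with the group mean and SD (bar, n = 4), each panel spanning the same number of log2 units. The groups are apart for Timm10, the bright Dnajc19 probe and the Timm8b probe ILMN_2821014, and overlap for the dim Dnajc19 probe, the other Timm8b probe and Timm44.

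The other genes of the intermembrane space lay on both sides of 0, and none passed. Timm8b, a small Tim chaperone that works with Timm13, had the lowest value of this compartment by both of its probes. The brighter probe had normalized log2 intensities of 11.86, 11.95, 12.24 and 12.19 in wild-type hearts 1 to 4 and 11.60, 11.58, 11.68 and 11.81 in knockdown hearts 1 to 4. The groups did not overlap, and the difference was -0.39 with a 95% interval of -0.65 to -0.13 (limma adjusted p = 0.0765). The dimmer probe had deposited signals of 2142, 1946, 1677 and 1841 against 2178, 1361, 1415 and 1229. By these signals knockdown heart 1 lay above all wild-type hearts. After normalization it lay among them, at 10.85 on the log2 scale against 10.84 to 11.01. The difference of the dimmer probe was -0.36, with a 95% interval of -0.62 to -0.09 (limma adjusted p = 0.114). Timm8b passed by the brighter probe under 5 of the 17 alternatives, among them the mean of both probes (-0.37, limma adjusted p = 0.0452), and by the dimmer probe under 2 of 16.

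Of the remaining small Tim chaperones, Timm8a1, whose human counterpart is lost in a deafness and dystonia syndrome, stood at 0.19 (-0.08 to 0.46). Timm9, the partner of Timm10 in its ring, stood at 0.11 (-0.16 to 0.37) by its brightest probe and at -0.06 and -0.0041 by the others, none of which passed. A direct test of Timm10 against Timm9 was not made. Timm10b, which ties the small Tims to the TIM22 complex, stood at 0.15, 0.0056 and -0.0069 by its 3 probes, the first of them (limma adjusted p = 0.409) with groups that did not overlap.

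Chchd4 and Gfer form the relay that puts disulfide bonds into proteins of the intermembrane space: Chchd4 oxidises the incoming protein and Gfer reoxidises Chchd4. Chchd4 had normalized log2 intensities of 8.43, 8.39, 8.64 and 8.16 in wild-type hearts 1 to 4 and 8.47, 8.60, 8.70 and 8.53 in knockdown hearts 1 to 4, which overlapped. Its difference was 0.17 with a 95% interval of -0.09 to 0.44 (limma adjusted p = 0.459). Gfer was tightly grouped, at 8.87, 8.78, 8.79 and 8.86 against 9.05, 8.92, 8.99 and 9.04. All 4 knockdown hearts lay above the wild-type range, and the difference of 0.18 (-0.03 to 0.38) did not pass (limma adjusted p = 0.325).

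In the outer membrane 4 genes were tested and none passed. Tomm22, the central receptor of the TOM complex, had the highest value, with 9.13, 8.87, 9.09 and 8.84 in wild-type hearts 1 to 4 and 9.20, 9.25, 9.27 and 8.99 in knockdown hearts 1 to 4. Its difference was 0.20 (-0.06 to 0.45; limma adjusted p = 0.376). The small TOM subunits Tomm7 and Tomm6 stood at 0.04 and -0.13 with overlapping groups. Mtx1, metaxin, a partner of the SAM complex, was measured by 3 probes that lay close together, at 0.10, 0.05 and 0.04. Tomm34, a cytosolic cochaperone that hands precursors to the mitochondrion and carries a TOM name without being a membrane subunit, stood at -0.05 by its brighter probe and at 0.20 by its dimmer one (limma adjusted p = 0.852 and 0.386).

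In the inner membrane 6 genes were tested, and Dnajc19 alone passed. Timm17a, a channel subunit of the TIM23 complex, was the only gene of this compartment above 0 by its brightest probe, at 0.08 (-0.17 to 0.33), with deposited signals of 2732 to 2966 in wild-type and 2891 to 3486 in knockdown hearts. Timm44, which anchors the motor chaperone to the channel, had normalized log2 intensities of 9.88, 9.96, 9.80 and 9.72 against 9.67, 9.69, 9.68 and 9.75 by its brightest probe. Its groups overlapped in knockdown heart 4 and wild-type heart 4, and its 3 probes stood at -0.14, -0.09 and -0.07, all without passing (limma adjusted p = 0.459, 0.729 and 0.782). Timm21, which links TIM23 to the TOM complex and the respiratory chain, stood at -0.24 (-0.45 to -0.02), -0.12 and 0.05 by 3 tested probes, the first with groups that did not overlap (limma adjusted p = 0.201). Timm50, the receptor of the TIM23 complex, stood at -0.03 and Timm29, a subunit of the TIM22 complex, at -0.04.

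**Figure D3:**
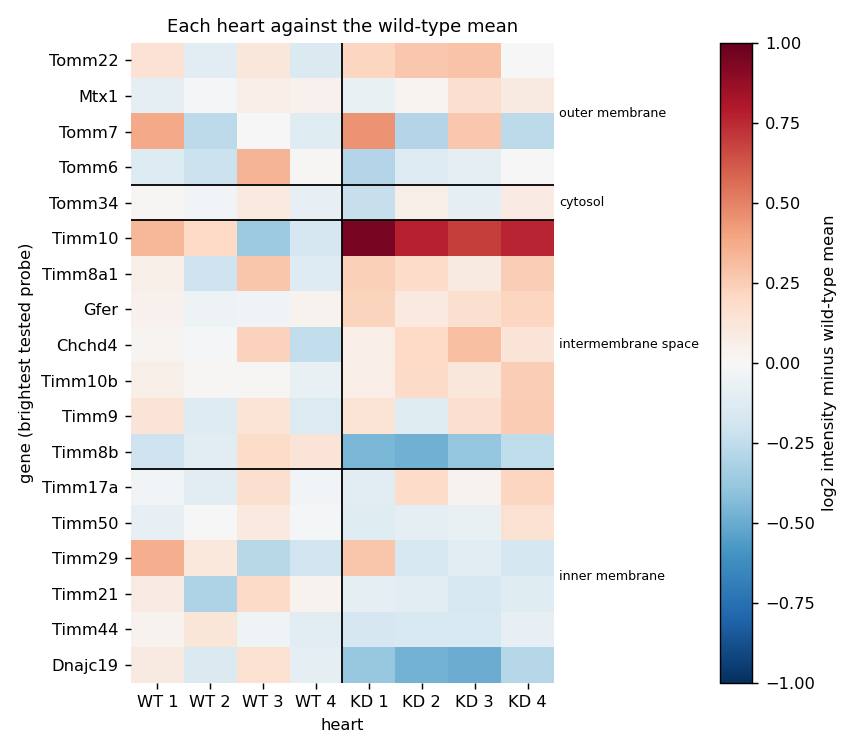
Normalized log2 intensity of each heart minus the wild-type mean for the 18 tested member genes (brightest tested probe of each), ordered by compartment and by difference; red is above and blue below the wild-type mean. The row of Timm10 is red and those of Timm8b and Dnajc19 are blue in all 4 knockdown hearts, while most other rows are pale on both sides.

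Outer and inner membrane genes were then set side by side, 1 probe per gene. The 4 outer membrane genes had a median difference of 0.05 with 3 positive and 1 negative, and the 6 inner membrane genes a median of -0.08 with 1 positive and 5 negative, beside -0.01 over 6889 named genes. The 7 genes of the intermembrane space had a median of 0.17 with 6 positive and 1 negative. Over all tested probes of each compartment the medians were 0.05 in the outer membrane (5 positive, 1 negative), -0.07 in the inner membrane (3 positive, 8 negative) and 0.06 in the intermembrane space (7 positive, 5 negative), so that the last was lower than with 1 probe per gene. Averaged per heart as deviations from the wild-type mean, the outer membrane genes stood at 0.07, -0.15, 0.13 and -0.05 in wild-type hearts 1 to 4 and at 0.07, -0.03, 0.15 and -0.04 in knockdown hearts 1 to 4 and the groups overlapped. The inner membrane genes stood at 0.08, -0.05, 0.05 and -0.07 against -0.10, -0.13, -0.16 and -0.05, so that knockdown heart 4 lay within the wild-type range. The outer minus inner value was -0.0037, -0.10, 0.08 and 0.02 in the wild-type hearts and 0.17, 0.10, 0.32 and 0.0081 in the knockdown hearts, with knockdown heart 4 again within the wild-type range. No test was made of these averages, and the sides of the mitochondrion are not shown to differ. The intermembrane space average lay between 0.12 and 0.23 in the knockdown hearts, above all wild-type hearts, but without Timm10 it lay between 0.01 and 0.14, within a wild-type range of -0.08 to 0.13 except for knockdown heart 4.

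**Figure D4:**
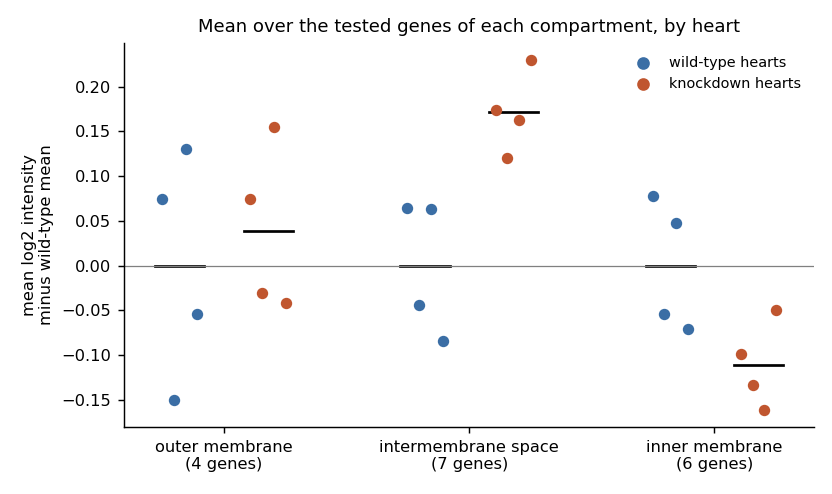
Mean over the tested genes of a compartment of the log2 intensity minus the wild-type mean, for each heart (points, blue wild type and orange knockdown; horizontal bars are group means over 4 hearts, 0 for wild type by construction). Outer membrane hearts overlap, inner membrane knockdown hearts lie between -0.16 and -0.05, and the intermembrane space values include Timm10.

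For 12 of the 30 genes no probe passed the detection filter, so that neither a level nor a change is given. They hold defining subunits of the machinery and were the receptors Tomm20 and Tomm70a, the pore Tomm40, the barrel assembly protein Samm50, Mtx2, the channel proteins Timm23, Timm22 and Timm17b, the small Tims Timm13 and Timm8a2, and the peptidase subunits Pmpca and Pmpcb. The deposited signals of the Tomm20 probe were -12.4, -17.1, -18.7 and -2.43 in wild-type hearts 1 to 4 and -19.6, -8.62, -13.1 and -16.4 in knockdown hearts 1 to 4. Those of Tomm40 were -4.64, -1.72, -0.23 and -0.66 against -0.38, -2.28, 19.8 and 7.95. Those of Tomm70a were -4.06, -4.44, 3.00 and -1.38 against 3.53, -1.65, -4.26 and -6.70. The Samm50 probe read 7.95, 6.77, 19.7 and 11.6 against 0.37, 11.3, 14.3 and 5.08. The brighter Timm23 probe read 2.11, 22.7, 16.6 and 9.24 against 10.96, 11.4, 6.98 and 20.5, and its other probe lay between -9.97 and 13.1. All of these are near the level of the negative control beads, where values have no order and give no measure of the genes. As a result the outer membrane was represented by 4 of its 9 genes on the array, the inner membrane by 6 of 9, the intermembrane space by 7 of 9 and the matrix peptidase by none of 2.

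Among partners of the machinery outside the rule, Hspa9 and Dnaja3 rose, both from the list of matrix motor and folding genes. Hspa9, the matrix Hsp70 that pulls precursors through the channel held by Timm44, had deposited signals of 5594, 5027, 4346 and 5622 in wild-type hearts 1 to 4 and 9675, 9368, 7717 and 6932 in knockdown hearts 1 to 4. The groups did not overlap, and Hspa9 rose by 0.66 ± 0.105 (SE; limma adjusted p = 0.00373), and by 0.91 by its other probe. Dnaja3, a J-domain cochaperone of the matrix, rose by 0.53 (limma adjusted p = 0.0246), and that call was kept under 10 of 17 alternatives. Of the 8 genes tested in the list of motor and folding genes 2 rose, none fell and 6 did not pass, with all 8 values positive and a median of 0.18. The share that passed was 25%, against 6.65% of all named genes. This list was chosen with earlier results of these data known, so the share is not an independent measure. Pam16, which with the J protein regulates the motor, stood at 0.24, Grpel1, its nucleotide exchange factor, at 0.13 and Dnajc15, the relative of Dnajc19, at 0.02, and none of these passed. Timm44, which anchors the motor chaperone, and Dnajc19, given above, had negative values by their brightest probes. The dim Dnajc19 probe stood at 0.03.

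In the MICOS complex, which shapes the folds of the inner membrane, Chchd6 rose 1.82-fold (0.86 on the log2 scale; limma adjusted p = 0.00200), from deposited signals of 43.3, 27.4, 30.4 and 36.7 to 89.0, 74.4, 67.2 and 74.3. All 4 knockdown hearts lay above all wild-type hearts. The Chchd6 probe was dim, and with an offset of 50 its difference was 0.57. It did not enter the test with detection p under 0.01 on all 8 arrays. The call was kept under all 16 alternatives that tested it. Of the 4 tested genes of this list 3 did not pass (median 0.02). Of 8 tested substrates of the Chchd4 and Gfer relay, Chchd10 rose by 0.45 (limma adjusted p = 0.0285; the call was kept under 9 of 17 alternatives) and 7 did not pass (median -0.02). None of 8 peptidases and membrane proteases passed (median -0.15, 7 negative), none of 5 insertases and complex partners (median -0.03) and none of 2 cytosolic chaperones (median 0.14). Romo1, a small subunit of the TIM23 complex, was read differently by its probes, with a difference of -0.52 by the dimmer one, which fell (limma adjusted p = 0.0246), and of 0.39 by the brighter one, which did not pass (limma adjusted p = 0.266). In all, 4 of 35 tested partner genes passed (11.4%, against 6.65% of named genes), on lists chosen with earlier results of these data known. Without wild-type heart 2 or 4 or knockdown heart 1, 2 or 3, and against wild-type hearts 3 and 4 alone, the count was 2.

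For comparison with gene groups most like this one, 1 of 67 tested genes of mitochondrial ribosomal proteins rose and 2 fell, with a median of -0.03. The share that passed was 4.48%, against 6.65% of all named genes. None of 34 tested Nduf genes of complex I passed, and 31 of them were negative, with a median of -0.18. Of all 6889 named genes 3593 were negative. The 18 tested import genes had 10 positive and 8 negative values at a median of 0.05. No test of the difference between these groups was made.

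Markers of other cell types were read in the same hearts. All 5 atrial genes had negative differences with a median of -0.71 and none passed, and their summed deposited signal was 31158 to 66788 in wild-type and 28164 to 40903 in knockdown hearts. Of the leukocyte genes only Lyz2 was tested, by its bright probe, and it was lower at -0.48 (limma adjusted p = 0.0450). Of its other probes, 1 was detected in 1 heart and 1 in none. The 4 ventricular genes had a median of -0.03, the 3 fibroblast genes of -0.18, the 4 endothelial genes of 0.11 and the 2 erythroid genes of 0.34, and none of these passed. Of the brown fat genes, Ucp1 stood at -0.60 and Cidea at 0.18, and neither passed. Cidea had deposited signals of 246, 280, 187 and 391 in wild-type hearts 1 to 4 and of 401, 347, 288 and 241 in knockdown hearts 1 to 4. By these signals wild-type heart 4 was the highest of its group and lay within the knockdown range. After normalization it stood at 8.64 on the log2 scale, above the knockdown hearts at 8.24 to 8.46. Without wild-type heart 4, which stood apart in Ucp1, Timm10 stood at 0.74 (limma adjusted p = 0.0370) and Dnajc19 at -0.44 (limma adjusted p = 0.0788). The part of the atrial and leukocyte markers in the values of Timm10 and Dnajc19 was not tested.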

How the data were processed

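Total RNA from each heart was extracted with Trizol and a column with DNase and labelled with biotin for Illumina arrays, per the labels' protocols. The authors' deposited table gives a background-subtracted intensity per probe and array, called non-normalized per the file headers, with 28.2% to 31.5% of values below 0, and a detection p-value beside each deposited intensity. A second deposited table, taken as quantile-normalized, ranked the probes of each array in the same order (Spearman correlation 1) and served as an alternative. Its upper quartile was 46.81 on every array, while its medians lay between 8.98 and 9.10. Scanner software is not given in the sources used here. Groups and replicate numbers came from the descriptions, and the labels name a different mouse per array.

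The function neqc of limma 3.58.1 (R 4.3.3) estimated the background of each array from its detection p-values (normexp), added an offset of 16, which shrinks the folds of dim probes, and returned quantile-normalized log2 intensities. All 9397 probes detected on at least 4 arrays were fitted with lmFit and eBayes, two-sided, with Benjamini-Hochberg adjustment over all of them. The test was tried on arrays simulated with independent noise per probe and no array effects. Every planted difference was larger in size than that of Dnajc19, so the trial does not bear on that call. Probes were named through the platform annotation and Entrez numbers (23962 of 23978 probes with a gene). Genes with several probes stand for 1 value by the brightest tested probe. Named genes are the members that passed or whose probes disagree, Tomm20, Tomm40, Tomm70a, Samm50, Timm23, Timm44, Dnajc19 and Chchd4, the 2 highest and 2 lowest of each compartment, and partners past the threshold; others were chosen after their values were seen. Members and lists were chosen with earlier results of these data known. Same-numbered hearts deviated from their group means with correlations of 0.165, 0.0053, -0.093 and -0.0053, so the numbers were not taken as pairs.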

Additional observations from a re-analysis of the deposited data

Results flagged for a closer look

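In 62 groups of 4 hearts, 1 per tested member probe and group, 3 held a heart that stood far from the other 3 in relation to the range of its group; about 1 group in 20 does so by chance. Knockdown heart 1 stood high for Timm29 (7.89 on the log2 scale). Knockdown heart 4 stood high for Timm50 (8.73, the next at 8.50). Wild-type heart 3 stood low for the dimmer Tomm34 probe (6.44, the next at 6.79), and the groups of that probe did not overlap.

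Among the member probes outside the test, Pmpca, a subunit of the processing peptidase, was detected in 2 of 4 knockdown hearts and in no wild-type heart, with deposited signals of 26.3 and 28.9 in knockdown hearts 1 and 3 against 3.88 to 15.4 in the wild-type hearts. Tomm40 was detected in 1 knockdown heart, heart 3, at 19.8, and in no wild-type heart. The reverse also occurred. Timm17b was detected in 2 wild-type hearts and no knockdown heart (12.2 to 24.2 against 2.43 to 15.2). Mtx2 and Samm50 were each detected in 1 wild-type heart and no knockdown heart. Knockdown hearts 1 and 3 had the most detected probes of all 8 arrays, 10183 and 10015, against 8935 to 9601 in the wild type. The part of these array differences in the detections was not tested.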

How the results depend on the processing

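Of 498 values of single members under the alternatives, 478 kept their side of the threshold, 13 lost the call (all of them Dnajc19) and 7 gained one (all of them Timm8b); 32 had the opposite sign, none of them past the threshold. Timm10 and Taz passed throughout. The member count of 2 became 1 with the deposited normalized table, with no detection filter and with the replicate block. It became 4 with an offset of 50 and with a trended and robust prior. Over all probes the calls were 514 of 9397 with the deposited normalized table, 478 of 25697 with no filter and 885 of 9397 with the offset of 50. With detection p under 0.01 on all 8 arrays, 3 of 29 member probes passed, beside 724 of 6491 of all probes. The member count was 1 to 1 when each heart was left out in turn. The partner count of 4 became 7 with the trended and robust prior, 2 with the replicate block and 2 against wild-type hearts 3 and 4 alone, whose mouse numbers adjoin those of the knockdown mice, and ranged from 2 to 4 when each heart was left out. The numbers only name the hearts, and over all probes the replicate block took the calls from 618 to 399, while they were 941 with the trended prior, 365 against wild-type hearts 3 and 4 and 392 to 518 with a heart left out. Medians of the compartments moved by less than the spread between hearts; that of the outer membrane ranged from -0.01 to 0.10 and changed sign in 2 of 17. The average of the intermembrane space without Timm10 was added after the data were seen. The cause of these shifts was not tested. Signal over background left 17 member probes outside the test.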
